A study of Schizosaccharomyces pombe with 12 samples.

Results

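Antisense RNAs are transcripts read from the strand opposite a protein-coding gene. In fission yeast (Schizosaccharomyces pombe) they are widespread, mostly scarce in growing cells, and many are degraded in the nucleus soon after they are made. Rrp6 is a 3′ to 5′ exonuclease of the nuclear exosome, the complex that carries out much of this decay, and Med20 is a subunit of Mediator, which connects transcription factors with RNA polymerase II. Comparing strains with and without each of the 2 proteins asks how antisense RNAs depend on each, and whether the effect of losing one depends on the other. The antisense RNAs described here are the rows of type ncRNA whose product names an antisense RNA, without a few IDs that the selection leaves out. There were 688 of them among the 6888 genes in the tables of med20Δ and rrp6Δ, and 687 among the 6871 in that of the double mutant. Their product line adds the words "possible alternative UTR" in 101 and not in 587.

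Polyadenylated RNA was measured in 4 strains with 3 samples each, grown in YEA, a rich medium, at 30 °C to log phase. Wild type was labelled h- and L972, L973 or L974. The med20Δ strain was h+ leu1-32 ura4-D18 with med20 replaced by a nourseothricin marker (NAT). The rrp6Δ strain was h- and carried rrp6∆::KanMx6 together with Leu1-32, His2, Ura4 DS/E 216 and Otr1R(Sph1)::ura+. The double mutant carried med20:natMX and rrp6∆::KanMx6 with leu1-32 and ura4-D18, -D19 or -D20, and its mating type was not given. Wild type and rrp6Δ had the same mating type, while med20Δ differed from both. Auxotrophic alleles also differed between strains together with the deletions. Where such a difference goes with a deletion, its part in a result cannot be told apart from that of the deletion. The labels do not say whether the 3 samples of a strain were separate cultures, so p-values cover only the spread among them, which may be technical.

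The authors' deposited tables give the mean normalised count of each strain, its fold change against wild type and DESeq p-values adjusted by Benjamini-Hochberg over all genes of a table. A gene was called at an adjusted p under 0.05. From the digits of each mean, the whole counts of its 3 libraries could be recovered, and these held 4712344 to 8119475 counts over the genes recovered in all 12. Every level given per library below is such a count divided by the size factor of its library, and the libraries of a strain are numbered 1 to 3 in an order of their own, not by the letters of the labels. The deleted genes were nearly silent: the authors' deposited tables give log2 fold changes of -7.14 and -4.82 for med20 and of -10.01 and -10.38 for rrp6 in the single and double mutants. The libraries labelled med20Δ did not lack ura4, although their label names ura4-D18. The main component of the spread within strains took 48.1% of that variance. Scores on it are centred within each strain, so 1 of the 3 libraries always has the opposite sign to the other 2. That library is said to stand apart, as a name and not as a result. Those named were library 1 of wild type and med20Δ and library 2 of rrp6Δ and the double mutant. They scored -33.73 to -23.1, and the others 7.31 to 18.78. The median antisense RNA differed between such a library and the mean of the other 2 by 0.02 to 0.16 on the log2 scale.

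By ID, 674 of the 688 antisense RNAs matched the RefSeq annotation of assembly ASM294v3, and 667 of these overlapped a protein-coding gene on the other strand, called the partner below. Their median length was 1462 bases (206 to 5317), and the median antisense RNA had 83.4% of its length over its partner. The antisense RNA covered the start of the partner in 272 pairs, its end in 121 and both ends in 139, and lay inside it in 135. Of the 658 partners found in the tables, 5 had more than 1 antisense RNA, and rec7, a meiotic recombination gene, had 4. In all, 20 antisense RNAs overlapped another on the same strand, so their reads may be shared. The sources used here do not give the genome build behind the tables or the strand setting of the read counting. The libraries marked strand with dUTP, but reads of an antisense RNA and its partner can be told apart only if the counting used that mark.

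Short stretches of 5 antisense RNAs on which the results turn read as follows, 5′ to 3′ in the sense of the antisense RNA, read by ID from RefSeq ASM294v3. The first had the largest change called in rrp6Δ where the mean level reached 50, the next pair lie opposite genes of chromatin and RNA decay, and the last pair were called lower in the double mutant. Capitals mark TNAAAC, the hexamer that Mmi1, a protein that hands meiotic transcripts to the nuclear exosome, is known to bind.
SPNCRNA.1017 (bases 31 to 60, chromosome I, minus strand): ttttagaaatatTTAAACttaaaatcgtaa
SPNCRNA.687 (bases 1 to 30, chromosome I, minus strand, no match in the RNA): ctggaatattttcaggagtcaagggaggtt
SPNCRNA.735 (bases 414 to 443, chromosome I, plus strand): cccagttatgtcTAAAACcttttctcctac
SPNCRNA.69 (bases 1031 to 1060, chromosome III, plus strand): ttaatgagagtgTAAAACctccatctgaat
SPNCRNA.1690 (bases 930 to 959, chromosome II, plus strand): caactgaattccTTAAACcatcaagcattg

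The hexamer stood in 610 of 674 antisense RNAs (90.5%), and in 4.72% of all their windows of 30 bases. Its density was 1.93 per kb in antisense RNAs called higher in rrp6Δ and 1.91 per kb in those not called. On the opposite strand of all antisense RNAs it was 1.92 per kb, as on their own. A match is a description of these letters and not a binding site, and the motif was chosen after the tables had been seen.

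In wild type the antisense RNAs were low. Their median level was 39.1 normalised counts over 12-library scaling, 145 of the 687 recovered in all libraries had a mean under 10 and 171 were over 100. Per length, 512 of the 637 antisense RNAs whose partner was also recovered were below that partner in wild type, with a median log2 ratio of -2.81. Partners with a mean above 7000 in any strain were not split into counts, so the most highly expressed genes are missing from this comparison. The highest antisense RNA in wild type, SPNCRNA.1261 opposite the ribosomal protein gene rps20, varied most within strains. Its product line adds "possible alternative UTR", and it overlaps another ribosomal protein gene, rps2, on its own strand. Its counts may therefore hold reads of the rps2 mRNA, which was not tested. SPNCRNA.1261 measured 6972, 1567 and 1292 in wild type, 7441, 4709 and 3940 in med20Δ, 515, 6396 and 1112 in rrp6Δ, and 1745, 13863 and 3218 in the double mutant. In every strain its highest library was the one that stood apart. No strain differed from wild type in the authors' deposited tables (DESeq adjusted p = 0.925, 1 and 0.764). The next in order, SPNCRNA.1096, measured 1294, 3377 and 4021 in wild type against 1088, 579 and 1006 in the double mutant. Those groups do not overlap, and the authors' deposited table gives a log2 fold change of -1.66 that was not called (DESeq adjusted p = 0.0978). Limma called that difference, at -1.60 (limma adjusted p = 0.0242).

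Many antisense RNAs rose in rrp6Δ and almost none fell. In the authors' deposited table of rrp6Δ, 107 of 688 antisense RNAs (15.6%) were called higher and 1 lower, beside 4.97% and 1% of all genes. The median log2 fold change was 0.58 over antisense RNAs and -0.04 over all genes in the authors' deposited table. Of the other 813 ncRNA rows, 139 were called higher and 4 lower there, with a median of 0.69. In limma on the recovered counts, 129 of the 593 antisense RNAs tested rose and 2 fell, beside 6.34% and 1.81% of all genes tested. Leaving out library 1 or 3 of rrp6Δ or library 3 of wild type brought the 129 to 62, 75 or 80. That test kept genes with a mean of at least 10 over the 12 libraries, so 95 antisense RNAs were left out, and 1 that was high in a single strain could pass through that strain alone.

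The largest change in rrp6Δ where the mean level reached 50 was that of SPNCRNA.1017, opposite erf1, which encodes the translation release factor eRF1. It measured 21.5, 10.2 and 24.8 in wild type, 30.4, 40.8 and 30.5 in med20Δ, 307, 189 and 213 in rrp6Δ, and 746, 482 and 596 in the double mutant. All 3 rrp6Δ libraries were above all of wild type and med20Δ, and all 3 of the double mutant were above rrp6Δ. The authors' deposited tables give 13.1-fold in rrp6Δ (DESeq adjusted p = 4.83e-12) and 33.3-fold in the double mutant (DESeq adjusted p = 3.23e-24). In med20Δ the authors' deposited table gives 1.80-fold, which was not called (DESeq adjusted p = 0.71).

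**Figure D1:**
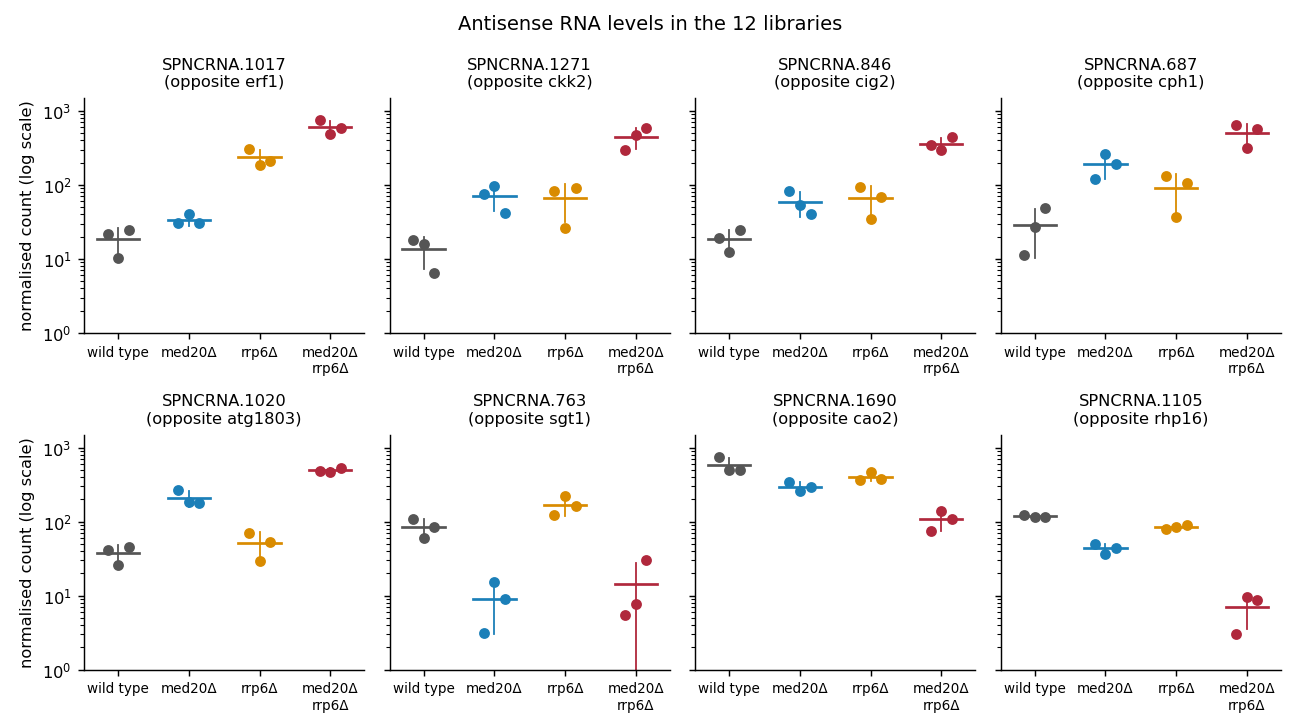
Normalised count (log scale) of 8 antisense RNAs in each of the 3 libraries of the 4 strains (points), with the strain mean (bar) and its SD (vertical line, cut at 1). SPNCRNA.1017 rose stepwise to 607.8 in the double mutant, while SPNCRNA.763 was low in both strains lacking Med20 and SPNCRNA.1105 lowest in the double mutant.

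Other antisense RNAs rose 5.51 to 6.40-fold in rrp6Δ in the authors' deposited table. SPNCRNA.1615, opposite the tRNA pseudouridine synthase gene pus2, measured 65.5, 83.6 and 70.5 in wild type and 427, 386 and 375 in rrp6Δ. The strains do not overlap, and the authors' deposited table gives a log2 fold change of 2.49 (DESeq adjusted p = 9.88e-10). SPNCRNA.1696 went from 409, 296 and 209 in wild type to 1669, 1726 and 1456 in rrp6Δ. Its log2 fold change was 2.46 in the authors' deposited table (DESeq adjusted p = 9.67e-11). SPNCRNA.1189, opposite ctp1, which acts at DNA double-strand breaks, went from 96, 67.8 and 56.1 to 565, 297 and 492, with 2.68 in the authors' deposited table (DESeq adjusted p = 5.46e-06). That RNA also overlaps cox5 on its own strand, so its counts may hold reads of the cox5 mRNA. SPNCRNA.990, opposite the CENP-B homologue gene cbh1, ran from 19.6 to 141 in wild type and from 324 to 677 in rrp6Δ, and its log2 fold change of 2.50 in the authors' deposited table had the weaker adjusted p = 0.00816. The single antisense RNA called lower, SPNCRNA.685, measured 160, 144 and 198 in wild type and 24.4, 117 and 35.9 in rrp6Δ. Its highest rrp6Δ value came from the library that stood apart, and the authors' deposited table gives -1.46 (DESeq adjusted p = 0.0198). Limma lost that call without any 1 wild-type library and without library 1 or 3 of rrp6Δ, at -1.34 to -1.91. No library held a recovered count under 1, and SPNCRNA.47, opposite gup1, had that count in each wild-type library. Whether a count of 1 was added to every value before the tables were made is not stated, so such a level may stand for 0 reads. It measured 1.13, 1.13 and 1.31 in wild type, 18.7, 21.9 and 10.4 in rrp6Δ, and 43.6, 19.1 and 19.4 in the double mutant, and it was called in both mutants in the authors' deposited tables (DESeq adjusted p = 0.00205 and 0.00136).

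The share called higher in rrp6Δ differed by wild-type level and by position on the partner. By level it was 15.9% of 145 antisense RNAs with a wild-type mean under 10, 19% of 142 between 10 and 30, 19.2% of 229 between 30 and 100 and 7.6% of 171 over 100, by calls of the authors' deposited table. The median log2 fold change over those bands was 0.80, 0.90, 0.60 and 0.21 in the authors' deposited table. By position the share was 12.9% of those over the partner's start, 18.2% of those over its end, 15.1% of those over both and 20% of those inside. By chromosome it was 17.1% on I, 14.8% on II and 14.8% on III. The wild-type libraries that set the bands of level are also the denominator of each fold change, so level and change are not independent. The bands were not counted over all genes. These shares are descriptions, and the differences between them were not tested.

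Fewer antisense RNAs were called in med20Δ than in rrp6Δ, but more of them were lower, so the calls ran in both directions. The authors' deposited table of med20Δ calls 22 higher (3.20%) and 18 lower (2.62%), beside 1.12% and 1.25% of all genes. The median log2 fold change was 0.08 over antisense RNAs and -0.00 over all genes in the authors' deposited table. In limma 35 of 593 rose and 25 fell, beside 2.15% and 2.03% of all genes tested. Leaving out library 1 or 2 of med20Δ or library 2 of wild type brought the 35 to 18, 14 or 21 and the 25 to 15, 15 or 14. No antisense RNA with a wild-type mean under 30 was called lower, and among the 171 over 100 the authors' deposited table calls 3 higher and 10 lower. The same wild-type libraries set the level and the fold change, and a low level leaves little room for a fall. These counts therefore do not show a trait of level.

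Among those called higher were SPNCRNA.687 and SPNCRNA.1020. SPNCRNA.687 lies opposite cph1, which encodes a PHD finger protein of a Clr6 histone deacetylase complex. It measured 11.3, 27.1 and 48.3 in wild type, 119, 263 and 191 in med20Δ, 133, 37.1 and 106 in rrp6Δ, and 640, 318 and 563 in the double mutant. The med20Δ libraries do not overlap wild type, rrp6Δ does, and the double mutant is above all others. The authors' deposited tables give log2 fold changes of 2.71, 1.73 and 4.17 (DESeq adjusted p = 0.000746, 0.21 and 3.15e-09). Without library 2 of med20Δ the med20Δ change was 2.56 in limma and not called (adjusted p = 0.0571). SPNCRNA.1020, opposite the autophagy gene atg1803, measured 41.8, 26 and 45.7 in wild type, 268, 184 and 179 in med20Δ, 70.7, 29.5 and 53.8 in rrp6Δ, and 488, 471 and 535 in the double mutant. Wild type and rrp6Δ overlap, and both strains lacking Med20 are above them. Its log2 fold changes were 2.48, 0.50 and 3.76 in the authors' deposited tables (DESeq adjusted p = 1.31e-07, 0.729 and 3.91e-15). SPNCRNA.1656, opposite the nucleoporin gene nup120, rose from 58.7, 49.7 and 47 to 274, 206 and 297 in med20Δ, a log2 fold change of 2.32 in the authors' deposited table (DESeq adjusted p = 4.59e-07).

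Among those called lower in med20Δ, the largest with a mean of at least 50 was SPNCRNA.1397, opposite num1, the gene of a cortical dynein anchor. It measured 102, 140 and 104 in wild type, 19.9, 21.7 and 19.1 in med20Δ, 75.6, 73.2 and 80.2 in rrp6Δ, and 35.7, 26.8 and 38.8 in the double mutant. Both strains lacking Med20 are below both strains that have it. The authors' deposited tables give -2.52, -0.54 and -1.73 (DESeq adjusted p = 7.94e-06, 0.6 and 0.00484). SPNCRNA.763, opposite sgt1, whose file entry names a transcriptional regulator, went from 107, 59.9 and 83.5 to 3.14, 15.3 and 8.9 in med20Δ, and from 122, 225 and 162 in rrp6Δ to 5.45, 7.79 and 30 in the double mutant. It fell by 3.21 on the log2 scale in med20Δ in the authors' deposited table (DESeq adjusted p = 3.22e-07). SPNCRNA.761, which lies opposite ucp7, a gene for a UBA and DNAJ domain protein, went from 148, 188 and 176 to 29.3, 48.5 and 66.1. Its log2 fold change was -1.84 in the authors' deposited table (DESeq adjusted p = 0.000377).

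All 4 antisense RNAs of rec7 had negative log2 fold changes in med20Δ, and 1 was called lower. SPNCRNA.69 measured 137, 106 and 79.6 in wild type, 20.9, 34.5 and 53.4 in med20Δ, 60.1, 96 and 75.5 in rrp6Δ, and 24.8, 27.7 and 39.7 in the double mutant. It fell by 1.57 in med20Δ and fell by 1.77 in the double mutant on the log2 scale, per the authors' deposited tables (DESeq adjusted p = 0.01 and 0.00346). The med20Δ call was lost in limma without library 1 or 2 of either strain and without the 4 libraries that stood apart, where the log2 difference was -1.08. The log2 fold changes of SPNCRNA.1203, SPNCRNA.132 and SPNCRNA.131 in med20Δ were -0.94, -0.97 and -1.33 in the authors' deposited table (DESeq adjusted p = 0.165, 0.482 and 0.165). Members on the same gene share sequence and are not independent. The rec7 mRNA stayed at 0.866 to 5.30 normalised counts in all 12 libraries, so that a change was not detectable at this depth.

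The double mutant held the largest number of called antisense RNAs. The authors' deposited table calls 142 of 687 higher (20.7%) and 28 lower (4.08%), beside 8.59% and 6.71% of all genes. The median log2 fold change was 0.70 over antisense RNAs and -0.03 over all genes in the authors' deposited table. In limma 218 of 593 rose and 56 fell, beside 15.3% and 14.8% of all genes tested, and without library 1 of the double mutant 170 rose and 34 fell. Scaling by total recovered counts gave 259 and 36, and re-centring on the median protein-coding gene 239 and 43. Those totals cover only the genes recovered in all 12 libraries, so the most highly expressed genes are missing from them. The share called higher again was lower among antisense RNAs with a wild-type mean over 100 (8.77% of 171) than in the bands under it (21.4% to 26.8%), by calls of the authors' deposited table. Here too the wild-type libraries enter both the band and the fold change.

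SPNCRNA.1271, opposite the protein kinase gene ckk2, had the highest log2 fold change of all antisense RNAs in the authors' deposited table of the double mutant. It measured 18.1, 15.8 and 6.53 in wild type, 75.4, 95.7 and 42 in med20Δ, 82.1, 26.6 and 92.5 in rrp6Δ, and 293, 475 and 583 in the double mutant. The single mutants overlap each other and stand between wild type and the double mutant. Its log2 fold changes were 2.39, 2.38 and 5.10 in the authors' deposited tables (DESeq adjusted p = 0.00614, 0.0695 and 6.25e-13). SPNCRNA.707, opposite the coronin gene crn1, measured 4.52, 5.65 and 1.31 in wild type and 130, 84.9 and 150 in the double mutant, a log2 fold change of 5.03 in the authors' deposited table (DESeq adjusted p = 3.44e-13). SPNCRNA.846, opposite cig2, the gene of a B-type cyclin of the G1/S transition, measured 19.2, 12.4 and 24.8 in wild type, 83.8, 53.6 and 40.7 in med20Δ, 95.1, 35.2 and 68.9 in rrp6Δ, and 352, 294 and 439 in the double mutant. Its call in that strain came with a log2 fold change of 4.30 (DESeq adjusted p = 4.09e-17), and the authors' deposited tables make no call in the single mutants, with 1.66 and 1.88 (DESeq adjusted p = 0.0526 and 0.0542). Limma called it higher in both single mutants, at 1.595 and 1.706 (limma adjusted p = 0.0367 and 0.0159).

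SPNCRNA.1105, opposite rhp16, a homologue of the nucleotide excision repair gene RAD16 of budding yeast, had the lowest log2 fold change of all antisense RNAs in that table. It measured 122, 118 and 115 in wild type, 50.3, 37 and 44.5 in med20Δ, 78.8, 85.5 and 89.6 in rrp6Δ, and 3.03, 9.53 and 8.83 in the double mutant. The 4 strains do not overlap at all, with -1.43, -0.42 and -4.01 in the authors' deposited tables (DESeq adjusted p = 0.0289, 0.733 and 9.26e-11). In the annotation 5 protein-coding genes lie between SPNCRNA.1105 and ura4, the marker that differed between the libraries labelled med20Δ and the double mutant, and the part of that locus in this change was not tested. SPNCRNA.1108, which has 1 protein-coding gene between it and ura4, was not called in any strain (log2 fold changes of -0.11, 0.77 and -0.05 in the authors' deposited tables). SPNCRNA.1106, with 3 between, was called in the double mutant at 2.17 in the authors' deposited table (DESeq adjusted p = 0.019).

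Read against each single mutant, the double mutant differs by 1 deletion in the absence of the other factor, and also by marker alleles. By the authors' deposited tables, ura4 stood at 0.09 in med20Δ and -9.445 in the double mutant, as log2 fold changes against wild type. The part of such differences cannot be told apart from that of the deletion. Against rrp6Δ, limma called 36 of 593 antisense RNAs higher and 44 lower, beside 4.33% and 3.74% of all genes tested. When the libraries were re-centred on the median protein-coding gene these counts were 42 and 34. Without library 3 of rrp6Δ they were 17 and 18, without library 1 of the double mutant 18 and 21, and without library 1 of rrp6Δ 22 fell. Against med20Δ it called 119 higher and 7 lower, beside 8.98% and 4.69% of all genes tested. Without library 3 of med20Δ or library 1 of the double mutant the 119 became 57 or 60, and without library 2 of the double mutant the 7 became 11. The median difference was -0.05 against rrp6Δ and 0.47 against med20Δ on the log2(normalised count + 1) scale, and that of all genes was -0.03 and -0.08.

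The comparisons of med20Δ with wild type and of the double mutant with rrp6Δ share no library, and each removes Med20. Both come from 1 model and share its estimate of the spread of each RNA, so their calls are not independent. Over 593 antisense RNAs their log2 differences had a Pearson r of 0.66 and a Spearman rho of 0.63, as a description across RNAs that are not independent and that share scaling and length. Of the 35 that rose in the first, 16 rose in the second, which is 45.7% of the first list and 44.4% of the second. Of the 25 that fell in the first, 18 fell in the second (72% and 40.9% of the lists). None was called in opposite directions, and 32 of the 35 and all 25 of the lower had the same sign in the second comparison. The comparisons of rrp6Δ with wild type and of the double mutant with med20Δ each remove Rrp6 and also share no library. They had r = 0.58 and rho = 0.58, and 73 antisense RNAs rose in both (56.6% and 61.3% of the lists), while 1 rose in the first and fell in the second. The model and its spread are shared here too. Neither the correlations nor the overlaps were computed over all genes, so they do not show a trait particular to antisense RNAs.

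**Figure D2:**
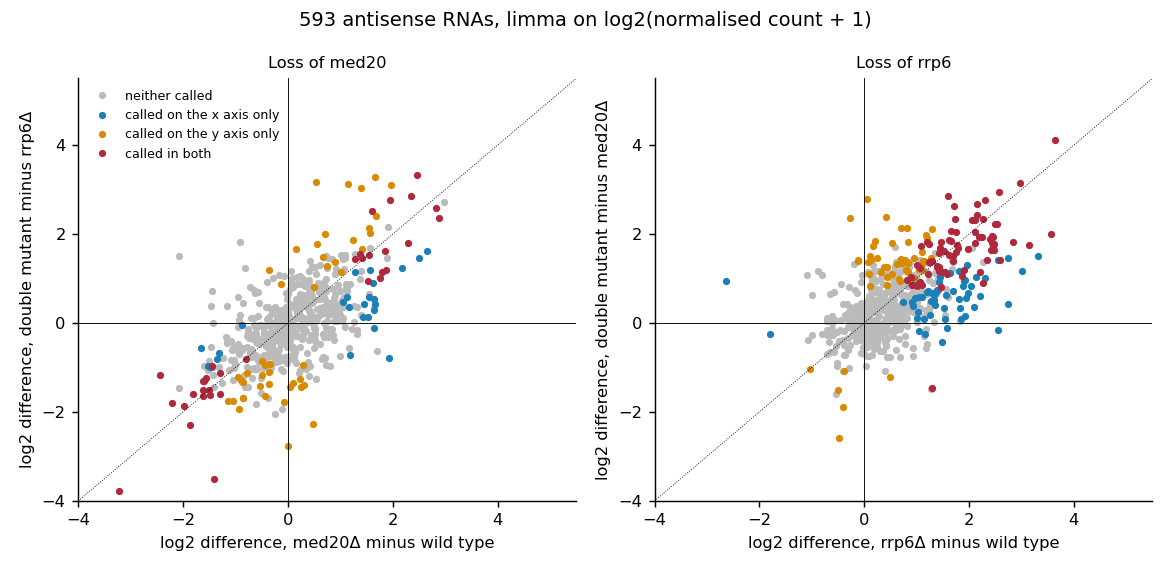
Log2 difference of each of 593 antisense RNAs on removal of Med20 (left) and of Rrp6 (right), with the other factor present on the x axis and absent on the y axis. Each panel sets side by side 2 limma comparisons that share no library. Red points were called in both, and on the right nearly all of these lie above 0 on both axes.

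Against rrp6Δ, SPNCRNA.1020 rose most in the double mutant, mean levels under 50 left aside (3.34 ± 0.33 SE, limma adjusted p = 5.51e-05). SPNCRNA.1289, opposite the deubiquitinase gene ubp12, followed. It measured 21.5, 31.6 and 24.8 in wild type, 62.9, 79.1 and 39.4 in med20Δ, 43.1, 23.8 and 39.6 in rrp6Δ, and 327, 293 and 303 in the double mutant. All libraries of the first 3 strains lie below those of the double mutant. Its difference from rrp6Δ was 3.12 ± 0.32 SE (limma adjusted p = 6.17e-05). The largest falls were those of SPNCRNA.763 at -3.78 and SPNCRNA.1105 at -3.52 (limma adjusted p = 0.00173 and 5.87e-05). SPNCRNA.1690, opposite cao2, a copper amine oxidase-like gene, measured 742, 499 and 495 in wild type, 343, 260 and 290 in med20Δ, 371, 463 and 377 in rrp6Δ, and 74.5, 139 and 109 in the double mutant. It was lowest in the double mutant in every library, at -1.94 against rrp6Δ and -1.50 against med20Δ (limma adjusted p = 0.000582 and 0.00209).

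An interaction, a double mutant that departs from the sum of both single log2 changes, was called by limma for 2 antisense RNAs, both below the sum, and for 0 above it, beside 0.0862% and 0.155% of all genes tested. With a term for the 4 libraries that stood apart, 8 were called below the sum and 4 above it, and with scaling by total recovered counts 0 were called. At an unadjusted p under 0.05 there were 66 of 593 antisense RNAs, beside 405 of 5803 genes. SPNCRNA.1298 measured 30.5, 49.7 and 57.4 in wild type, 67, 66.4 and 53.4 in med20Δ, 97.5, 86.5 and 156 in rrp6Δ, and 26.1, 22.5 and 17.7 in the double mutant. It was highest in rrp6Δ and lowest in the double mutant, with an interaction of -2.75 ± 0.46 SE (limma adjusted p = 0.0259). It also is the RNA that rose in rrp6Δ against wild type and fell in the double mutant against med20Δ. SPNCRNA.1078, opposite spt20, a gene of the SAGA coactivator complex, overlaps dsc4 on its own strand. Its counts may therefore hold reads of the dsc4 mRNA. SPNCRNA.1078 measured 65.5, 70.1 and 66.6 in wild type, 186, 152 and 127 in med20Δ, 222, 157 and 194 in rrp6Δ, and 101, 139 and 105 in the double mutant. Each single mutant is above wild type in every library, and the double mutant lies between wild type and rrp6Δ, with an interaction of -1.90 ± 0.34 SE (limma adjusted p = 0.0357). Over 20 alternatives the interaction of SPNCRNA.1298 was called in 10 (adjusted p = 0.00605 to 0.106) and that of SPNCRNA.1078 in 9 (adjusted p = 0.00902 to 0.17). Leaving out single libraries gave 0 to 4 such antisense RNAs, and 0 without library 2 of wild type, library 1 or 2 of med20Δ, library 1 or 3 of rrp6Δ, or library 1 or 3 of the double mutant. Without library 1 or 3 of wild type there was 1, and without library 2 of the double mutant there were 4.

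Antisense RNAs whose product line adds "possible alternative UTR" differed from the others in what they overlap. Of the 100 matched to the annotation, 68 overlapped a protein-coding gene on their own strand, against 5 of the other 574. A count for such an RNA may therefore hold reads of that neighbour's mRNA. Their median wild-type level per kb was 34.2 normalised counts, against 24.9. Of 101, the authors' deposited tables call 5 higher and 6 lower in med20Δ, 20 and 0 in rrp6Δ, and 24 and 6 in the double mutant. Of the others, the authors' deposited tables call 17 higher and 12 lower of 587, 87 and 1 of 587, and 118 and 22 of 586. Over all genes the shares higher and lower there were 1.12% and 1.25%, 4.97% and 1%, and 8.59% and 6.71%. In the double mutant the share called lower was below that of all genes in both classes (5.94% with those words and 3.75% without). Median log2 fold changes in the authors' deposited tables were 0.13, 0.46 and 0.84 with those words and 0.06, 0.59 and 0.67 without. The share called higher in rrp6Δ was thus 19.8% with those words and 14.8% without in the authors' deposited table, and 22.1% and 21.7% in limma. In med20Δ limma called 11.6% and 4.82% higher. Of all genes tested, limma called 6.34% higher in rrp6Δ and 2.15% in med20Δ. No difference between the classes was tested.

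**Figure D3:**
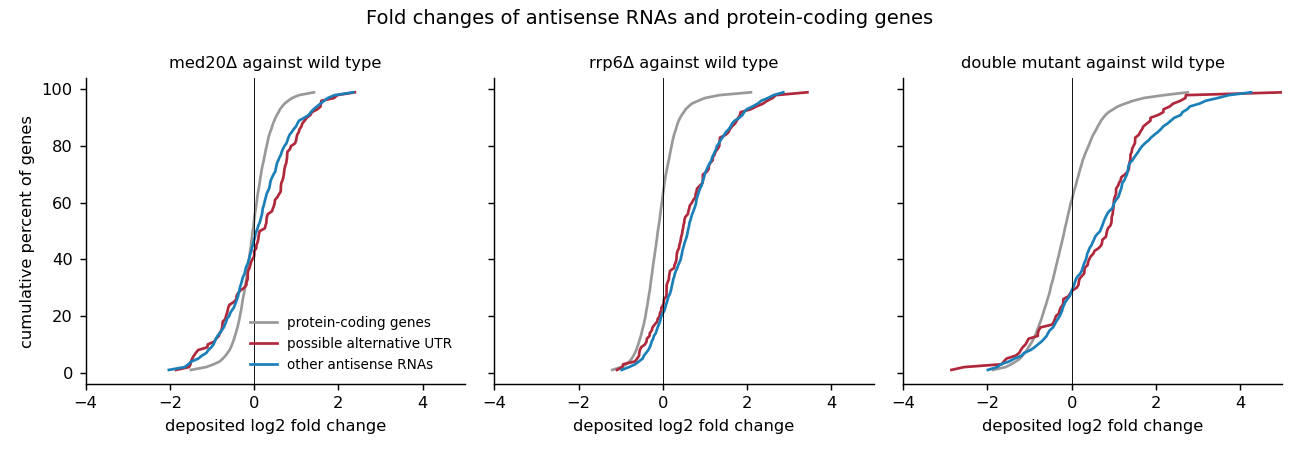
Cumulative percent of genes (y axis) up to a given deposited log2 fold change (x axis) in the 3 mutants, for protein-coding genes, antisense RNAs with the words "possible alternative UTR" and the other antisense RNAs. Both antisense curves lie to the right of protein-coding genes in rrp6Δ and the double mutant over most of their range, and they run close to each other.

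Most mRNAs overlapping on the same strand were not called with the antisense RNA. Of the 67 overlapping pairs in the class with those words whose neighbour was measured, 3 antisense RNAs were called higher and 5 lower in med20Δ by the authors' deposited table, and 2 neighbours higher and 2 lower. In rrp6Δ 15 antisense RNAs were called higher and 0 lower, and 1 neighbour higher and 1 lower, by the authors' deposited table. In the authors' deposited table for both deletions, 17 antisense RNAs were called higher and 4 lower, and 4 neighbours higher and 5 lower. Protein-coding genes were called higher and lower in 0.801% and 1.04%, 1.62% and 1.21%, and 3.81% and 8.19% in these tables. Both were called in the same table for SPNCRNA.807 with byr3 in rrp6Δ and SPNCRNA.1188 with pbi2 in the double mutant. The 15 antisense RNAs called higher in rrp6Δ had neighbours with a median log2 fold change of -0.14 in the authors' deposited table.

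By the authors' deposited tables, partners on the other strand mostly stayed uncalled when the antisense RNA changed. Limma called some partners that those tables do not, among them cph1 and atg1803 higher in med20Δ. In the double mutant these included erf1 lower and ckk2 higher, where limma called 15.3% of all genes tested higher and 14.8% lower. Limma calls of partners were not counted over all pairs. In rrp6Δ, of 105 pairs with the antisense RNA higher, the partner was called higher in 3 and lower in 1, by the authors' deposited table, in which 1.62% and 1.21% of protein-coding genes were called. The median log2 fold change of those partners was -0.07 in the authors' deposited table. In med20Δ, of 20 pairs with the antisense RNA higher, 1 partner, thi201, was called lower, and of 18 pairs with it lower no partner was called, beside 0.801% higher and 1.04% lower of protein-coding genes in the authors' deposited table. In the double mutant, of 139 pairs with the antisense RNA higher, 16 partners were called lower (11.5%) and 5 higher (3.60%), beside 8.19% and 3.81% of protein-coding genes in the authors' deposited table. These shares are near those of all protein-coding genes. Of 26 pairs with the antisense RNA lower, 6 partners were called higher (23.1%) and 2 lower (7.69%) in the authors' deposited table.

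**Figure D4:**
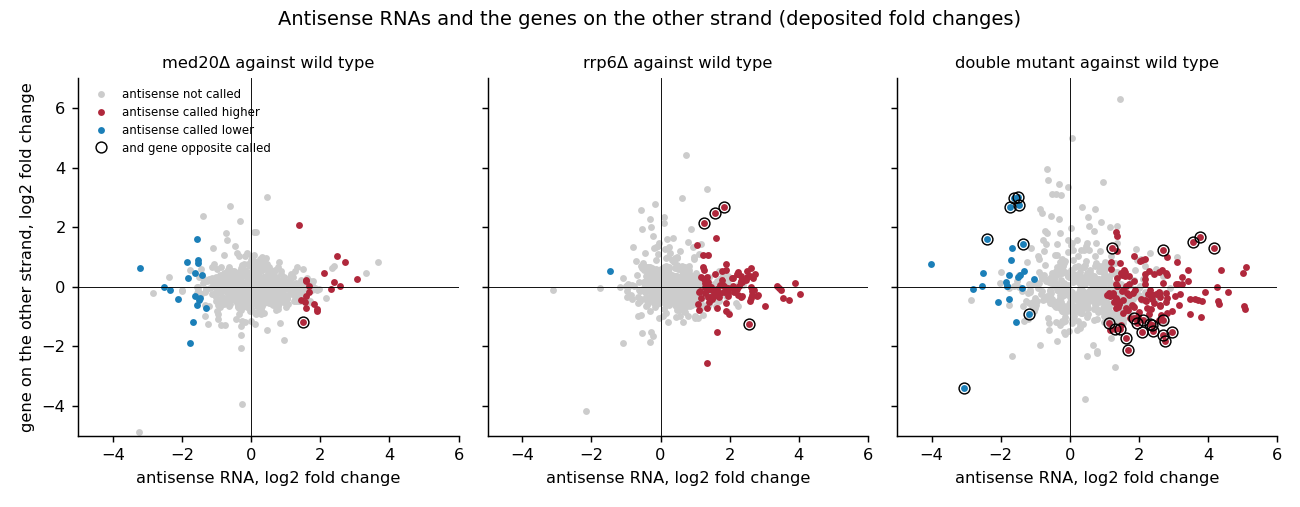
Deposited log2 fold change of each antisense RNA (x axis) and of the gene on its other strand (y axis) in the 3 mutants. Red and blue points are antisense RNAs called higher and lower, and black rings mark those whose partner was also called, in the double mutant 16 lower and 5 higher partners among red points and 6 higher and 2 lower among blue points.

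The 6 partners called higher with a lower antisense RNA in the double mutant were num1, cao2, mug147, jnm1, hsp3102 and atg43. The num1 mRNA measured 12.4, 22.6 and 27.4 in wild type, 22, 24.3 and 16.5 in med20Δ, 56.9, 73.2 and 101 in rrp6Δ, and 117, 146 and 130 in the double mutant. It rose without Rrp6, at 1.94 and 2.69 in the authors' deposited tables (DESeq adjusted p = 0.000685 and 4.56e-06), while SPNCRNA.1397 fell in the strains without Med20, so that in med20Δ the antisense RNA fell with num1 at 0.00 in the authors' deposited table. The cao2 mRNA measured 29.4, 46.3 and 84.8 in wild type, 35.6, 16.6 and 24.2 in med20Δ, 91.8, 63.7 and 71.7 in rrp6Δ, and 184, 139 and 151 in the double mutant. Its rise of 1.60 was called in the double mutant alone in the authors' deposited tables (DESeq adjusted p = 0.00344). For jnm1, a predicted dynactin gene, and hsp3102, the authors' deposited tables also call the partner higher in rrp6Δ (2.57 and 2.36), where their antisense RNAs were not called (-0.56 and 0.11).

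The partners that moved with or against a higher antisense RNA in the double mutant and are named next were chosen after their values were seen. SPNCRNA.735 lies opposite mtr4, the gene of the RNA helicase of the TRAMP complex, an exosome cofactor. It measured 19.2, 20.3 and 32.6 in wild type, 47.1, 60 and 44.5 in med20Δ, 54.4, 25.7 and 51.9 in rrp6Δ, and 73.3, 97.9 and 134 in the double mutant. Its log2 fold change of 2.12 stood beside -1.12 for mtr4 in the authors' deposited table (DESeq adjusted p = 0.000828 and 0.0162). SPNCRNA.1353 rose by 2.76 beside -1.82 for tho4, a predicted THO complex gene, in the authors' deposited table (DESeq adjusted p = 1.06e-06 and 0.000218). SPNCRNA.986 and srp2, a gene of mRNA export, had 2.40 and -1.49 in the authors' deposited table (DESeq adjusted p = 7.28e-05 and 0.000647). On the other side, both members of 2 pairs rose. The cph1 mRNA rose by 1.31 beside 4.17 for SPNCRNA.687, and atg1803 by 1.69 beside 3.76 for SPNCRNA.1020, in the authors' deposited table (DESeq adjusted p = 0.00602 and 0.000322 for the mRNAs). The cph1 mRNA measured 2287, 1254 and 1521 in wild type and 3581, 4590 and 4042 in the double mutant, above its antisense RNA in every library.

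Antisense RNAs of some gene groups were counted from lists of partners. Of 46 antisense RNAs opposite genes named for meiosis, the authors' deposited tables call 1 higher and 1 lower in med20Δ, 4 and 0 in rrp6Δ, and 6 and 2 in the double mutant. Over all antisense RNAs the shares called higher and lower were 3.20% and 2.62%, 15.6% and 0.145%, and 20.7% and 4.08% in the authors' deposited tables. The 46 had median log2 fold changes of -0.15, 0.21 and -0.02 in the authors' deposited tables, against 0.08, 0.58 and 0.70 over all antisense RNAs. Partners of that group were called higher for 1 of the 46 antisense RNAs in med20Δ, for 7 in rrp6Δ and for 8 in the double mutant by the authors' deposited tables, in which 0.801%, 1.62% and 3.81% of protein-coding genes were called higher. The authors' deposited tables call a partner lower for 1 of the 46, when both genes were deleted. SPNCRNA.760, opposite rec12, whose protein makes the meiotic DNA breaks, rose from 14.7, 11.3 and 14.4 to 55.3, 62.7 and 66.1 in rrp6Δ, while the rec12 mRNA had 15.8 to 24.8 in wild type and 25.7 to 30.9 in rrp6Δ. SPNCRNA.760 had 2.25 in rrp6Δ in the authors' deposited table (DESeq adjusted p = 0.000255), and rec12 had 0.52 and was not called (DESeq adjusted p = 0.792). SPNCRNA.583, opposite the meiotic kinase gene mug27, was called higher in med20Δ and the double mutant at 1.38 and 1.34 in the authors' deposited tables (DESeq adjusted p = 0.0308 and 0.00723). It measured 164, 111 and 198 in wild type, 265, 507 and 463 in med20Δ, 108, 152 and 127 in rrp6Δ, and 439, 440 and 281 in the double mutant.

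Of 5 antisense RNAs opposite mating genes, SPNCRNA.1026, on the formin gene fus1, was called higher in all 3 mutants, at 1.58, 1.90 and 2.81 in the authors' deposited tables (DESeq adjusted p = 0.0164, 3.11e-05 and 3.55e-07). SPNCRNA.1067, opposite the mating-type regulator map1, was called at 2.17 in the double mutant by the authors' deposited table (DESeq adjusted p = 0.00319). Wild type and rrp6Δ were both h-, so mating type was the same in the comparison of rrp6Δ. For the call in med20Δ, which was h+, its part cannot be told apart from that of the deletion, and for the double mutant the mating type was not given. Of 10 opposite ribosomal protein genes, the authors' deposited tables call 0 in med20Δ, SPNCRNA.741 (rpl2001) in rrp6Δ, and SPNCRNA.741, SPNCRNA.625 (rps2601) and SPNCRNA.1594 (rpl1801) higher in the double mutant. None of the 10 was called lower in any of the 3 tables, and partners were called lower for 3 of them in the double mutant by the authors' deposited table, beside 8.19% of protein-coding genes. Opposite cell surface genes, SPNCRNA.1201 (pfl4) was called higher in rrp6Δ and SPNCRNA.607 (pfl8) in the double mutant, at 1.47 and 1.60 in the authors' deposited tables (DESeq adjusted p = 0.0371 and 0.0272). None of 2 antisense RNAs opposite core stress genes was called, and no antisense RNA lay opposite a listed phosphate or iron gene.

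Genes of the machinery that acts on antisense RNAs were read beside them. Their counts stand beside 0.801% higher and 1.04% lower of protein-coding genes in med20Δ, 1.62% and 1.21% in rrp6Δ, and 3.81% and 8.19% in the double mutant, by the authors' deposited tables. Of 23 measured genes of the exosome and its cofactors, the authors' deposited tables call 0 in med20Δ, the cofactor gene red1 higher (1.00, adjusted p = 0.0301) and rrp6 itself lower in rrp6Δ, and rrp6, mtr4 and dis3, the gene of the other exosome nuclease, lower in the double mutant. For dis3 the authors' deposited table gives -1.17 (DESeq adjusted p = 0.0123). Of 6 genes of 5′ decay and 12 of RNA interference and heterochromatin, none was called in any of the 3 authors' deposited tables. Of 15 genes of chromatin factors that restrain antisense transcription, the authors' deposited tables call 0 in either single mutant, and cph1 higher and the remodeller gene hrp3 lower (-1.02, adjusted p = 0.045) in the double mutant.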

How the data were processed

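Polyadenylated RNA of 12 samples was sequenced in 4 strains. The submitters' processing notes name Bowtie 0.12.7 and DESeq among the authors' tools. The tables deposited by the authors give, per the file headers, a mean normalised signal for wild type and for 1 mutant, their fold change, its log2 and a p-value with its adjusted form. No column holds a single library, so each mean was split into the whole counts of 3 libraries: 6381 genes had counts in all 12, among them 687 antisense RNAs. These counts replaced the per-library values that the planned second test needed.

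Limma 3.58.1 in R 4.3.3 tested log2(count/size factor + 1) for 5803 genes with a mean of at least 10, 593 of them antisense RNAs, in 1 model over 4 strains, adjusted by Benjamini-Hochberg over all genes tested. The splitting and the limma fit were tested on simulated data. Named were the 8 highest and 8 lowest called per deposited comparison, and 6 and 6 per limma comparison, with a mean of at least 50, the 5 highest in wild type, and called members of partner lists. The members and lists were chosen with earlier results of these data known. Alternatives were thresholds, filters, pseudocounts, scalings and single libraries left out. A term for the 4 libraries that stood apart, and their removal, were chosen after seeing the data. Depth ran from 4712344 to 8119475 recovered counts, and the number of samples limits precision.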

Additional observations from a re-analysis of the deposited data

Results flagged for a closer look

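The change on losing med20 differed between strains with and without Rrp6 for 2 antisense RNAs, by the interaction term of limma over all genes tested. Marker alleles that differ between these strains cannot be told apart from the deletions here. The interaction was -2.75 on the log2 scale for SPNCRNA.1298 and -1.9 for SPNCRNA.1078, both lower in the double mutant than the sum of the single changes. SPNCRNA.1298 measured 30.5 to 57.4 in wild type and 53.4 to 67 in med20Δ, and fell from 86.5 to 156 in rrp6Δ to 17.7 to 26.1 in the double mutant, while SPNCRNA.1078 was above wild type in every library of each single mutant. Over 20 alternatives the call of SPNCRNA.1298 held in 10 and that of SPNCRNA.1078 in 9, and neither held with scaling by total recovered counts.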

How the results depend on the processing

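No paired analysis was possible because the tables' columns carry no replicate letters. Apart from single libraries left out, 85 of 120 alternative counts lay within 1.5 times the reported count. Some of these could hardly move: re-centring the deposited fold changes kept the deposited p-values, and some counts were 0 in both settings. No antisense RNA named as highest or lowest in a comparison changed direction in any alternative, and those named for their partner or wild-type level were not followed. The former were picked as the most extreme calls in these same data, so a change of direction was hardly possible. Counts are given as higher/lower against 22/18 in med20Δ, 107/1 in rrp6Δ, 142/28 in the double mutant, 36/44 for it against rrp6Δ, 119/7 against med20Δ and 0/2 for the interaction. An adjusted p under 0.01 gave 14 and 7 in med20Δ, 71 and 0 in rrp6Δ, and 86 and 13 in the double mutant. A mean of at least 50 gave 11 lower in med20Δ, 65 higher in rrp6Δ, 29 lower against rrp6Δ, 63 higher against med20Δ and 0 for the interaction. Limma in place of DESeq gave 35 and 25 in med20Δ, 129 and 2 in rrp6Δ, and 218 and 56 in the double mutant, and these are the counts that the limma alternatives named next change. A term for the 4 libraries that stood apart gave 70 and 57, 185 and 7, 265 and 77, 72 and 93, 184 and 21, and 4 and 8 in that order. Leaving them out gave 7 lower in rrp6Δ, 214 and 64 in the double mutant, 68 lower against rrp6Δ, 19 lower against med20Δ and 1 lower for the interaction. Scaling by total recovered counts gave 0 interactions, and 259 and 36 in place of 218 and 56 in the double mutant. Pairs overlapping over at least 50% of the antisense RNA gave 1 lower partner with a lower antisense RNA in the double mutant, in place of 2. Leaving out single libraries in limma gave 14 to 36 and 14 to 29, 62 to 130 and 0 to 4, 170 to 215 and 34 to 57, 17 to 48 and 18 to 54, 57 to 131 and 5 to 11, and 0 and 0 to 4. The cause of these moves was not tested. The median of all genes lay at -0.06 in rrp6Δ, -0.07 in the double mutant and -0.08 against med20Δ, and at 0.06, 0.11 and 0.07 after re-centring on protein-coding genes. Called in every alternative were 10 of 16 named antisense RNAs in med20Δ, 8 of 9 in rrp6Δ, 16 of 16 in the double mutant, 11 of 12 against rrp6Δ, 11 of 12 against med20Δ and 0 of 2 interactions. Because of how these were picked, such shares do not extend to other antisense RNAs. Low counts limit what can be seen: 145 antisense RNAs had a wild-type mean under 10.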
